A study of Mus musculus with 6 samples.

Results

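The gene models described here are those that the deposited table classes as rRNA, snRNA, snoRNA, scaRNA or misc_RNA and that had a mean of at least 0.5 FPKM (fragments scaled both to the length of the model and to the size of the library) over the 6 libraries. They were chosen by this mean level and by the class in the table, so their level is a description and not a result. Of 3859 models of these classes, 170 passed, out of 55711 gene models in all, and 889 were above 0 in at least 1 library. The members were 14 of 354 rRNA models, 66 of 1385 snRNA models, 71 of 1507 snoRNA models, 4 of 51 scaRNA models and 15 of 562 misc_RNA models.

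RNA from mouse testis was sequenced in 3 libraries labelled Tmc7 knockout and 3 labelled Tmc7 heterozygote, so every heterozygous library also carries 1 altered allele and there is no wild type. Both groups are C57BL6. Tmc7 encodes a transmembrane channel-like protein, and the study compared gene expression between the genotypes. The labels give neither age nor allele. They also leave unsaid whether each library is its own animal, and the p-values therefore measure the spread between these samples, which may be technical. Per the labels, Trizol was used for extraction and a SMARTER mRNA-Seq kit for the libraries.

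The libraries held between 17059486 and 19343479 reads, as worked back from the FPKM. Tmc7 had 43.8, 41.9 and 35.1 FPKM in the 3 libraries labelled knockout, against 39.1, 37.7 and 37.2 FPKM in the 3 heterozygous ones, so its level does not check the labels. All 9 germ cell markers of testis, Prm1 and Ddx4 among them, were detected.

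Small structural RNAs do their work as RNA. The snRNAs form the core of the spliceosome, the snoRNAs guide the methylation and pseudouridylation of ribosomal RNA, and the scaRNAs do the same for snRNAs in Cajal bodies. The misc_RNA class holds 7SK RNA, which restrains the elongation factor P-TEFb, the RNA of the signal recognition particle, Y RNAs and the telomerase RNA Terc. Mammalian genomes carry many decayed copies of U6, U1, 5S, 7SK and Y RNA genes, most snoRNAs are cut out of introns of longer genes, and most of these RNAs have no poly(A) tail.

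The label "small structural RNA" held for the class of each model but only in part for what was read. Only 24 of the 170 members bore a gene name other than a predicted-gene number, a clone name or a number in the series of 5S copies. A comparison with 182 named small RNAs by blastn placed 126 of the 170 beside a named RNA. Named members were themselves among the RNAs compared, so their own matches were fixed in advance. Among the 66 snRNA members, 43 were closest to U6 (Rnu6), with a median identity of 88.5% over matched stretches of 24 to 111 bases. Closest to U1 were 10, to U2 3, to U5 2 and to U7 1, while 7 had no match. Of the 14 rRNA members, 12 were closest to 5S RNA, with identities from 77.5% to 93.3%.

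The most read members among the U6-like, 5S-like, Y RNA-like and 7SK-like models are shown to let the copies be read directly, the Y RNA-like and 7SK-like ones beside the gene each resembles. Sequences are from the GENCODE M21 transcripts in GRCm38, and ACAGAGA, the stretch of U6 that pairs with the 5′ splice site, is in capitals. Gm25047 lies at chrX:36363899-36364002 on the plus strand and Gm25493 at chr1:4723277-4723379 on the minus strand.
Gm25047: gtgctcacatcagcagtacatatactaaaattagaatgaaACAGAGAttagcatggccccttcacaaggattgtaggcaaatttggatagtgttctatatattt
Gm25493: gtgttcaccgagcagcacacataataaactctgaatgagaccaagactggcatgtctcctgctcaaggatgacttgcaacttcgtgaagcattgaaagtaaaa

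Gm25493 lacks these letters. Its best match to Rnu6 had 83.3% identity over 48 bases, and that of Gm25047 79.6% over 108 bases. Searched on the strand of the model, ACAGAGA stood in 24 of the 43 members closest to U6, in 36.4% of all 66 snRNA members and in 42.2% of the 1383 snRNA models with 1 transcript, against 3.38% of the 1507 snoRNA models. A match is a description of the letters alone.

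The 5S-like members n-R5s40 (chr15:79692502-79692625, plus strand) and Gm23289 (chr12:104109283-104109390, plus strand) were the most read rRNA members after CT010467.1.
n-R5s40: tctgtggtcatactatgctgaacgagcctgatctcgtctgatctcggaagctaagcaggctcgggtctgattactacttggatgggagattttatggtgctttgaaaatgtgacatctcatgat
Gm23289: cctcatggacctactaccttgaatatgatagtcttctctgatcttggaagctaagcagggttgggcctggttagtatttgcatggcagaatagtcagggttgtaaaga

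The best match of n-R5s40 to Rn5s, the gene of 5S ribosomal RNA, had 88.1% identity over 84 bases and that of Gm23289 90.6% over 53 bases. Gm24045 (chr4:114987964-114988061, plus strand) matched Rny1 (chr6:47788069-47788180, minus strand) with 89.2% identity over 65 bases.
Gm24045: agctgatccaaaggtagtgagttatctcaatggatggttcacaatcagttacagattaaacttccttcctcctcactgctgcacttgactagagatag
Rny1: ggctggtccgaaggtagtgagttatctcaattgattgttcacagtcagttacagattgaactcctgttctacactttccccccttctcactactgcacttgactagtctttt

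Gm24224 (chr7:79352488-79352745, minus strand), the misc_RNA member with the most reads, matched 7SK RNA with 78.8% identity over 179 bases. It is set beside the first 300 bases of Rn7sk (chr9:78175334-78175633, minus strand).
Gm24224: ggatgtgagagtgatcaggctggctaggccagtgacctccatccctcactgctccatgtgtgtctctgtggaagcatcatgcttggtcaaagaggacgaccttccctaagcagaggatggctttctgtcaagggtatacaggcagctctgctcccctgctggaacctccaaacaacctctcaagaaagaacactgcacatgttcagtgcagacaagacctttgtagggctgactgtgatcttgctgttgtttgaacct
Rn7sk: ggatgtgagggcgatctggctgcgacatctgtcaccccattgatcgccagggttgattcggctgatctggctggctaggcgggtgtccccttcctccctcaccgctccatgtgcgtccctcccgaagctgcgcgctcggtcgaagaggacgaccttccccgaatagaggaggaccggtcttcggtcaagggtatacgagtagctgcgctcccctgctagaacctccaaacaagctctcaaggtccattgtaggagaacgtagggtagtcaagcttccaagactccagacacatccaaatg

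One ribosomal model held nearly all reads of the class. CT010467.1 (ENSMUSG00000106106), which the deposited table describes as a sequence related to 18S RNA, the RNA of the small ribosomal subunit, took 93.6%, 98.4% and 98.1% of the members' reads in the libraries labelled knockout. Its part was 95.7%, 93.9% and 92.02% in the heterozygous libraries. Its minus-strand model spans chr17:39846353-39848827 in GRCm38, and RefSeq (GRCm38.p6) places the pseudogene Rn18s-rs5 there from 39846354 to 39848202. It was the only member longer than 423 bases, with 2466 exonic bases.

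CT010467.1 had 7503, 32264 and 30691 reads in knockout libraries 1, 2 and 3, against 8119, 8474 and 7471 reads in heterozygous libraries 1, 2 and 3. On the FPKM scale its level was 160.9, 754.5 and 638.3 FPKM in the libraries labelled knockout and 200.1, 185.6 and 157.7 FPKM in the heterozygous ones. Knockout libraries 2 and 3 stood far above every other library, while knockout library 1 lay inside the range of the heterozygous ones, so the groups overlapped. The group means were 517.9 ± 314.6 FPKM in the libraries labelled knockout and 181.1 ± 21.6 FPKM in the heterozygous libraries (SD, n = 3 each). The difference in log2(FPKM + 1) was 1.24 (SE 0.54, 95% interval -0.04 to 2.51), and it did not pass the test (limma adjusted p = 0.868). It was 1.94 without knockout library 1, 0.83 without library 2 and 0.95 without library 3, and passed in none of these (limma adjusted p from 0.140 to 1.0).

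**Figure D1:**
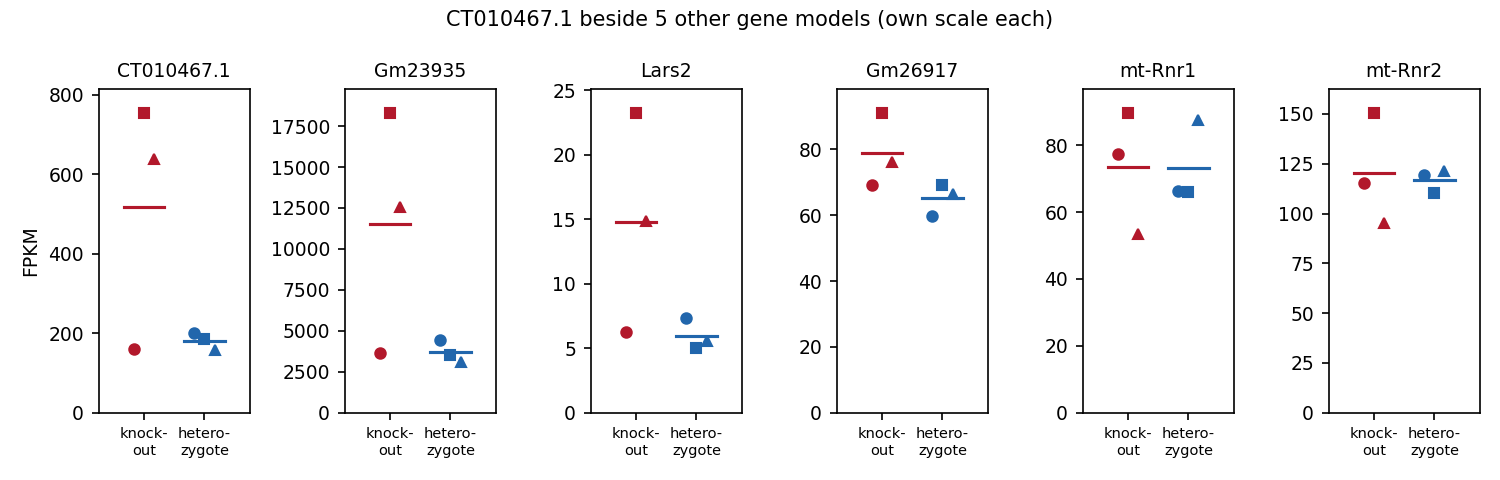
FPKM of CT010467.1 and of 5 other gene models in each library, knockout on the left and heterozygote on the right of each panel, with its own axis from 0. Circles, squares and triangles are replicates 1, 2 and 3, and bars are group means. In the panels of CT010467.1, Gm23935, Lars2 and, by a smaller margin, Gm26917, knockout libraries 2 and 3 lie above the other 4 libraries, which the panels of mt-Rnr1 and mt-Rnr2 do not show.

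CT010467.1 overlaps other gene models. Gm42418 on the plus strand and AY036118 on the minus strand overlap 1822 of its 2466 exonic bases (73.9%), share 70.4% and 36.2% of its 31-base words, and were both listed at 0 in all 6 libraries. Outside both lie 605 bases from 39846353 to 39846957 and 39 bases at the other end. The 300 bases of that stretch next to Gm42418 are shown because reads there lie in no exon of either overlapping gene. They lie at chr17:39846658-39846957 and are printed as the minus strand of GRCm38, the strand of the model. Whether this strand carries the RNA of the small ribosomal subunit or its complement was not tested.
CT010467.1: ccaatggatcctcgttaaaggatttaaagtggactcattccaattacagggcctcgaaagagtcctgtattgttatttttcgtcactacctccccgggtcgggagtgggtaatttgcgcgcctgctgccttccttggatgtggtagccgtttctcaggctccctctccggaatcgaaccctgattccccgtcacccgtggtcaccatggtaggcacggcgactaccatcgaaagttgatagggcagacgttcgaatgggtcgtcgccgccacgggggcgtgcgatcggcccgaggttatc

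Other models that share no 31-base word with CT010467.1 were read beside it. Gm23935, a 57-base model of class miRNA on chromosome 16, had 3961, 18085 and 13936 reads in the libraries labelled knockout and 4160, 3724 and 3383 reads in the heterozygous libraries. Lars2, which encodes the mitochondrial leucyl-tRNA synthetase, had 1314, 4465 and 3216 reads in the libraries labelled knockout and 1333, 1025 and 1189 reads in the heterozygous libraries. In these models, as in CT010467.1, knockout libraries 2 and 3 were the highest and library 1 lay inside the heterozygous range. Whether the reads counted for Gm23935 and Lars2 hold ribosomal sequence from elsewhere in the genome was not tested.

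Gm26917, a lincRNA that ends just before CT010467.1 on the opposite strand, had 69.0, 91.1 and 76.2 FPKM in the libraries labelled knockout and 59.7, 69.3 and 66.6 FPKM in the heterozygous libraries. Here too knockout libraries 2 and 3 were the highest and library 1 lay inside the heterozygous range, and the means were 78.8 ± 11.2 FPKM against 65.2 ± 4.93 FPKM (SD, n = 3 each). The mitochondrial ribosomal RNAs did not share the pattern: mt-Rnr2 averaged 120.5 ± 28.0 FPKM in the libraries labelled knockout and 116.8 ± 5.86 FPKM in the heterozygous libraries (SD, n = 3 each). None of these models passed (limma adjusted p from 0.868 to 0.989).

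Levels of cell type markers differed between the same libraries. The mean log2(FPKM + 1) of 15 late spermatid genes was 9.21, 8.60 and 8.38 in knockout libraries 1, 2 and 3, against 9.34, 9.14 and 8.76 in the heterozygous libraries. For 9 macrophage genes it was 2.36, 2.87 and 2.86 in the libraries labelled knockout and 2.30, 2.42 and 2.53 in the heterozygous libraries. For 12 Sertoli cell genes it was 4.34, 4.64 and 4.83, against 4.30, 4.36 and 4.52.

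Knockout libraries 2 and 3 thus had the lowest late spermatid level and the highest macrophage and Sertoli levels of the 6. Of the tested genes, 14 of 15 late spermatid markers were lower, and 9 of 9 macrophage and 10 of 12 Sertoli markers were higher in mean in the libraries labelled knockout, none passed the test, and no gene of these lists was at 0. Of the 9 germ cell markers, 4 of which are also in the late spermatid list, 0 were higher and 9 lower, with mean log2(FPKM + 1) of 8.56, 7.92 and 7.95 in the libraries labelled knockout and 8.71, 8.52 and 8.30 in the heterozygous libraries. In the other lists, 6 of 6 tested peritubular myoid, 6 of 10 spermatogonial, 3 of 4 endothelial, 2 of 10 spermatocyte, 2 of 8 Leydig, 0 of 4 blood and 0 of 1 epididymal markers were higher, and none passed. Their part in the result was not tested. In bulk tissue, fewer cells of a type and less RNA per cell cannot be told apart.

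Without CT010467.1 the class was nearly empty. The other 169 members together had 514, 530 and 589 reads in the libraries labelled knockout and 365, 552 and 648 reads in the heterozygous libraries. Scaled to library size as RPM (reads-per-million), that came to 29.8 ± 2.998 RPM in the libraries labelled knockout and 28.7 ± 6.77 RPM in the heterozygous libraries (SD, n = 3 each). The median member had a mean of 2.17 reads per library, 115 of the 170 had fewer than 3, and 8 had at least 10. A single read in a model of 100 bases was worth 0.513 to 0.608 FPKM, depending on the library. Intervals from read counts would cover at most counting error and not the spread between samples. The sources used here name no molecular identifiers.

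**Figure D2:**
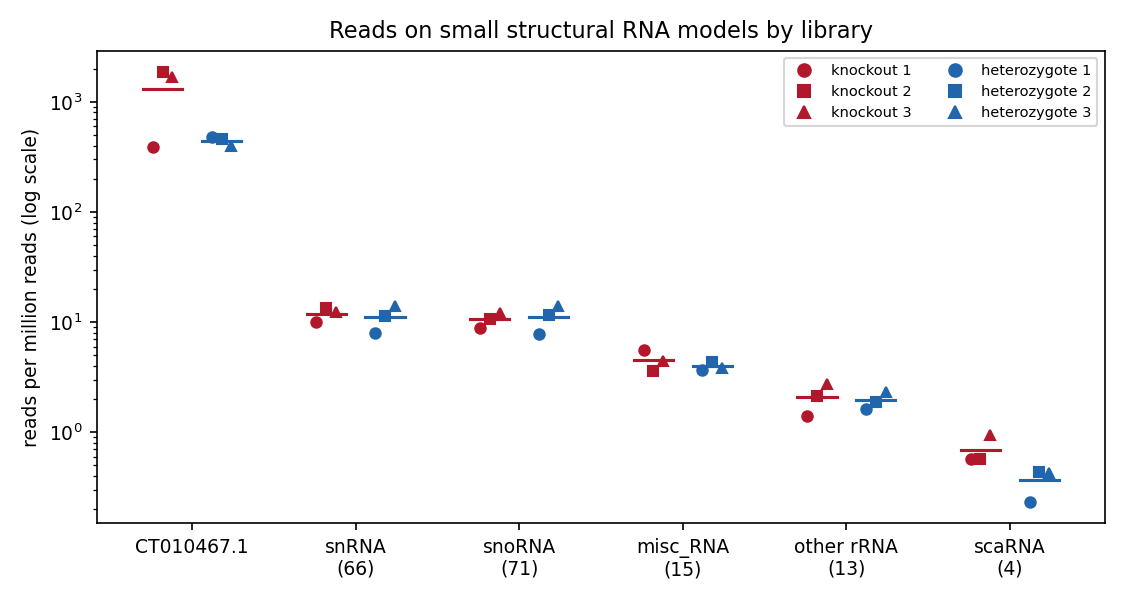
Reads scaled to library size (RPM), on a log axis, for CT010467.1 and for the summed members of each class, knockout on the left and heterozygote on the right of each pair. Circles, squares and triangles are replicates 1, 2 and 3, bars are group means, and numbers under the names count the members. For CT010467.1 knockout libraries 2 and 3 stand at 1855 and 1692 RPM, and the other 4 libraries between 387.9 and 475.9 RPM, with knockout library 1 the lowest on this scale.

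By class, the groups overlapped in every sum but that of the scaRNAs. The 66 snRNA members had 11.9 ± 1.65 RPM in the libraries labelled knockout and 11.2 ± 3.08 in the heterozygous libraries. The 71 snoRNA members had 10.6 ± 1.65 against 11.2 ± 3.16, the 15 misc_RNA members 4.55 ± 1.02 against 3.96 ± 0.363, and the 13 other rRNA members 2.09 ± 0.681 against 1.95 ± 0.337 (SD, n = 3 each). The 4 scaRNA members had 11, 10 and 17 reads in the libraries labelled knockout and 4, 8 and 8 reads in the heterozygous libraries, or 0.694 ± 0.211 against 0.365 ± 0.113 RPM. Of these 4, 1 had a heterozygous mean under 0.5 FPKM and was a member only through the libraries labelled knockout, so its direction was fixed by the choice. In sums this small a handful of reads sets the order, and sums over the members were given no test.

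Among the other rRNA members, n-R5s40, a 5S copy in an intron of the GTP-binding protein gene Gtpbp1, had 5, 8 and 20 reads in the libraries labelled knockout and 5, 19 and 13 reads in the heterozygous libraries. Gm23289 had 5, 9 and 7 reads, against 8, 8 and 8. The copy n-R5s70 had 5, 1 and 2 reads, against 6, 2 and 2, and the rRNA members below it had means of 2 reads or fewer. In n-R5s40 the libraries labelled knockout covered the whole range of the heterozygous ones. Only 4 of 180 models named as numbered 5S copies were members, and Rn5s itself was listed at 0 in all 6 libraries.

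The snRNA class was led by copies of U6 and U1, the RNAs that pair with the 5′ splice site. Gm25047 had 33, 41 and 31 reads in the libraries labelled knockout and 31, 39 and 42 reads in the heterozygous libraries, which is 18.3 ± 3.94 FPKM against 19.8 ± 1.501 FPKM (SD, n = 3 each). Its difference of -0.13 in log2(FPKM + 1) had a 95% interval from -0.48 to 0.23 (limma adjusted p = 0.878). It lies outside genes, 1558 bases from the ubiquitin ligase gene Lonrf3, and shared no 31-base word with another gene.

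Gm25493, 11667 bases from its nearest gene, had 37, 18 and 13 reads in the libraries labelled knockout, against 24, 23 and 24. Gm23027, a U1-like model in an intron of K230010J24Rik on the same strand, had 19, 10 and 8 reads, against 7, 11 and 24. In Gm25493 the knockout libraries lay on both sides of the heterozygous ones, and in Gm23027 a single library of each group was high. Gm24036, also U1-like, had 7, 11 and 11 reads, against 6, 7 and 13. These differences lay between -0.22 and 0.12 in log2(FPKM + 1), with standard errors from 0.23 to 0.37.

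The snoRNA class held the largest share of named genes. Box C/D snoRNAs, which guide methylation, carry a C box near the start (TGATGA) and a D box near the end (CTGA), and box H/ACA snoRNAs, which guide pseudouridylation, end in ACA and a few more bases. Snord104 (chr11:106500993-106501062, plus strand), Snord91a (chr11:74905424-74905516, plus strand) and Snora31 (chr14:75847905-75848034, plus strand) are shown with these boxes in capitals where found. Snord91a has CTGA in its last 20 bases but no TGATGA in its first 20.
Snord104: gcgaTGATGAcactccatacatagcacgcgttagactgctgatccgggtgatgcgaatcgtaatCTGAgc
Snord91a: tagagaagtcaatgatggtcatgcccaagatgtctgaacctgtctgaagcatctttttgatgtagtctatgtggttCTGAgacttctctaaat
Snora31: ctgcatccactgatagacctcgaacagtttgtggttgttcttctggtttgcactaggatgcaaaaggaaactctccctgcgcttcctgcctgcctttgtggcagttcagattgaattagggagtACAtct

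TGATGA in the first 20 bases with CTGA in the last 20 stood in 14 of the 71 snoRNA members (19.7%), against 20.5% of all 1507 snoRNA models and 0 of 1383 snRNA models. ACA in the last 6 bases stood in 43.7% of the members, against 45.8% of all snoRNA models and 2.24% of snRNA models. The members thus carried these letters about as often as the class they were drawn from, and 27 of the 71 had neither.

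Snord91a, in an intron of the ribosome maturation gene Tsr1, had 6, 5 and 12 reads in the libraries labelled knockout and 9, 7 and 12 reads in the heterozygous libraries. Snord104, outside genes, had 5, 6 and 3 reads, against 11, 1 and 5. Snord71, in an intron of the adaptin gene Ap1g1, had 2, 3 and 6 reads, against 7, 10 and 3. Each of these had overlapping groups, and the differences of -0.32, 0.01 and -0.66 in log2(FPKM + 1) had standard errors of 0.26, 0.60 and 0.40.

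Gm24900, similar to the H/ACA snoRNA Snora61 (74.3% identity), was the most read snoRNA member, with 16, 17 and 14 reads in the libraries labelled knockout and 11, 12 and 24 reads in the heterozygous libraries. Gm25588, in an intron of the highly expressed testis gene Shcbp1l (87.6 ± 1.56 FPKM in the libraries labelled knockout and 87.9 ± 2.40 FPKM in the heterozygous libraries), had 2, 5 and 8 reads, against 0, 12 and 11. Gm22890 had 6, 3 and 7 reads, against 8, 8 and 5. No group stood apart in these models, and the group means of Shcbp1l differed by less than the SD of either group.

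The scaRNA members were all predicted models with no match among the named small RNAs compared. Gm25492, in an intron of the ribosomal RNA methyltransferase gene Bud23, had 3, 2 and 6 reads in the libraries labelled knockout and 2, 1 and 1 reads in the heterozygous libraries. Gm24644, in an intron of the F-box gene Fbxo3, had 5, 2 and 5 reads, against 0, 1 and 3. Gm24682 had 1, 5 and 1 reads, against 1, 5 and 3, and Gm23119 had 2, 1 and 5 reads, against 1, 1 and 1. The adjusted p-values of the 4 lay between 0.868 and 0.913 (limma). The host Bud23 averaged 6.33 ± 0.219 FPKM in the libraries labelled knockout and 6.09 ± 0.279 FPKM in the heterozygous libraries, and Fbxo3 averaged 16.6 ± 0.577 FPKM against 15.6 ± 1.52 FPKM (SD, n = 3 each).

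In the misc_RNA class, Gm24224 was the 1 member with at least 10 reads whose groups did not overlap. It had 23, 13 and 15 reads in the libraries labelled knockout and 9, 10 and 6 reads in the heterozygous libraries, or 3.53 ± 1.02 FPKM against 1.81 ± 0.518 FPKM (SD, n = 3 each). Its difference, 0.69 in log2(FPKM + 1), had a standard error of 0.20 and did not pass (limma adjusted p = 0.868; unadjusted p = 0.0117). The model lies in an intron of the lipase gene Abhd2 on the opposite strand, and Abhd2 was at 16.5 ± 2.78 FPKM in the libraries labelled knockout and 16.97 ± 0.884 FPKM in the heterozygous libraries.

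Rn7sk, the 7SK gene itself, had 24, 6 and 9 reads in the libraries labelled knockout and 5, 15 and 10 reads in the heterozygous libraries, with knockout library 1 the highest of the 6. Of its 31-base words, 72.8% also occur in other genes, and how reads that match several of them were counted is unknown here. Gm25386, another 7SK-like model, had 14, 4 and 10 reads, against 5, 15 and 8. Gm24045 had 12, 3 and 9 reads, against 13, 12 and 7, and Gm24379, with a short Y RNA-like stretch, had 5, 1 and 3, against 3, 2 and 3. Terc, the RNA template of telomerase, shares no 31-base word with another gene and had 2, 6 and 10 reads in the libraries labelled knockout and 2, 8 and 7 reads in the heterozygous libraries, a difference of 0.02 in log2(FPKM + 1) with a standard error of 0.26.

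**Figure D3:**
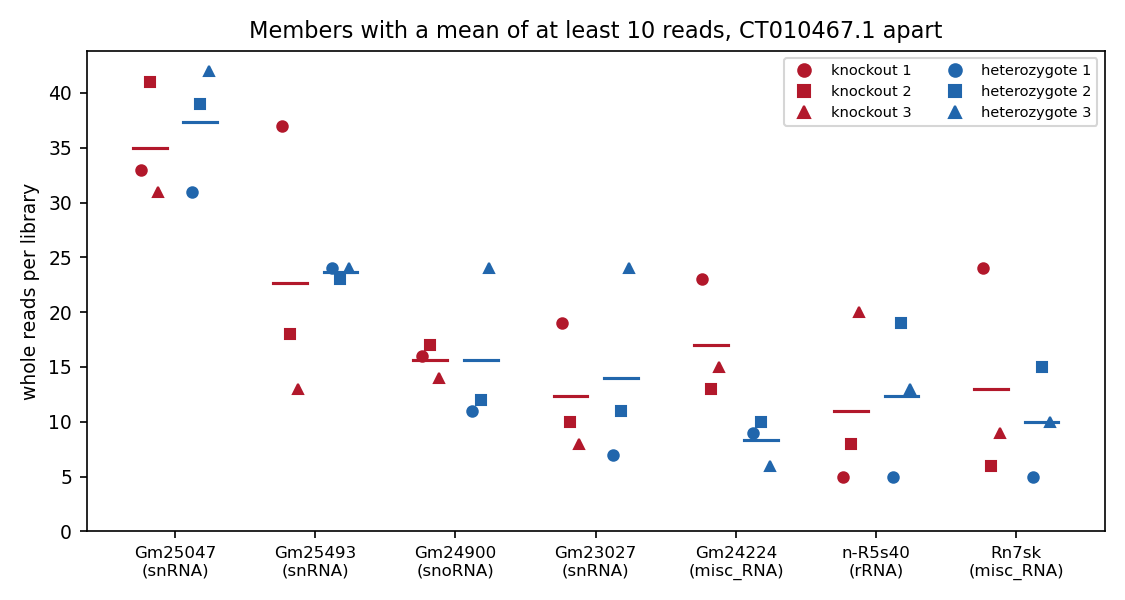
Whole reads per library of the 7 members other than CT010467.1 with a mean of at least 10 reads, knockout on the left and heterozygote on the right of each pair. Circles, squares and triangles are replicates 1, 2 and 3, and bars are group means. The groups overlap in 6 of the 7, and in Gm24224 the libraries labelled knockout (13 to 23 reads) lie above the heterozygous ones (6 to 10 reads).

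Across all 19168 gene models that reached the same mean level, limma called 0 higher and 0 lower (0.0% in each direction) in the libraries labelled knockout at an adjusted p under 0.05, and 0 of the 170 members were called. At an unadjusted p under 0.05 (limma) there were 16 of 170 members higher and 7 of 170 lower. Of all 19168 models tested, 284 were higher and 457 lower, so the members' share was larger in both directions. Members that passed the level through 1 group only, counted below, are among the 170. By limma-voom on whole reads, 0 of the 8 members with enough reads were called, against 0.0% higher and 0.00486% lower of 20556 genes. The smallest adjusted p among the members was 0.328.

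The groups did not overlap, with the libraries labelled knockout higher, in 11 members (6.47%), where 4.15% of all models tested did so. With these libraries lower it was 7 members (4.12%), where 4.41% of all models did so. The members' median difference was 0.04 in log2(FPKM + 1), against -0.01 over all models, with 92 members above 0 and 78 below. By class the median was 0.20 in rRNA, 0.11 in snRNA, -0.02 in snoRNA, 0.54 in scaRNA and -0.02 in misc_RNA. The median standard error of a member's difference was 0.39, against 0.14 over all models tested.

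The counts have to be read with the choice of members in view. A mean of under 0.5 FPKM in the heterozygous group was found in 35 members and in the knockout group in 22, and these passed the level only through the other group, so their groups had to differ. Gm23209 and Gm25014, a pair of U6-like models named after their values were seen, had the smallest p of the members. Gm23209 had 0 reads in each library labelled knockout, against 2, 2 and 3, and Gm25014 had 4, 2 and 3 reads, against 0 in each heterozygous library (limma adjusted p = 0.328 in both). With at most 4 reads in a library, no fold is given.

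**Figure D4:**
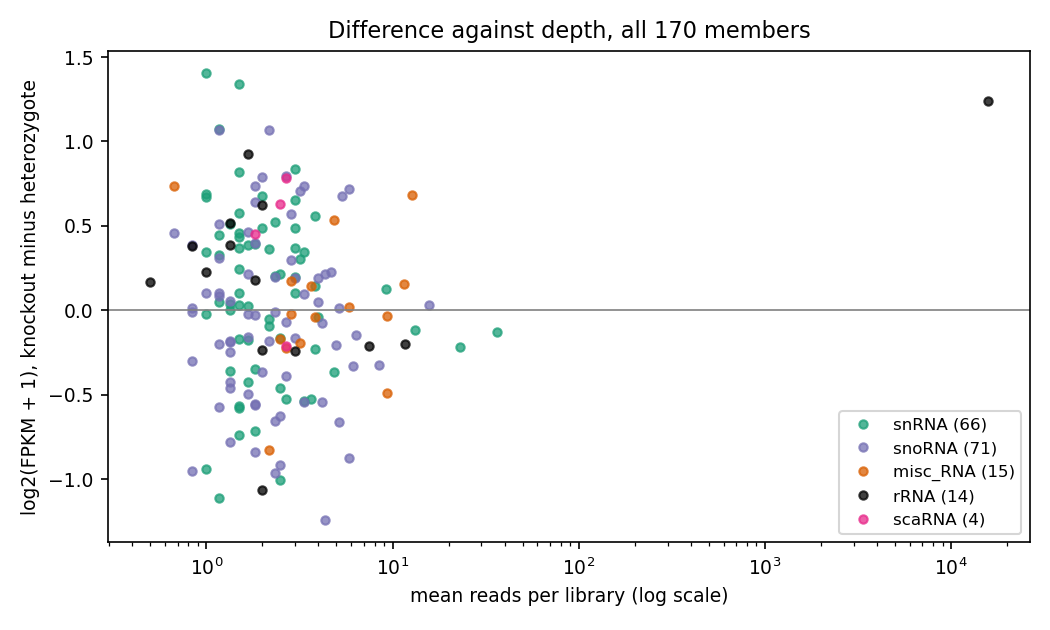
Difference in log2(FPKM + 1), knockout minus heterozygote, against mean reads per library on a log axis, 1 point per member, coloured by class. Nearly all points lie under 10 reads, where differences reach from -1.24 to 1.41, and CT010467.1 is the single point far to the right, at 1.24.

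Most members lay in introns. Of the 170, 120 lay in an intron of a longer gene without touching its exons, 46 lay outside genes, 4 overlapped an exon in part and 0 lay wholly in exons. Of all 1710 intronic models 33.6% had a read in some library and 7.02% were members, and of the 1791 models outside genes these shares were 16.4% and 2.57%. Of 267 models wholly in exons of another gene, 203 on the same strand and 64 on the opposite strand, 0 had a read in any library. How reads that overlap several gene models were counted is unknown here, and its part in these zeros was not tested.

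Intronic members lay in more highly expressed genes. The genes around intronic members had a median level of 11.8 FPKM, against 1.04 FPKM around intronic models that were no members. The share of intronic models that were members was 0.722% where the surrounding gene was under 0.5 FPKM, 5.47% from 0.5 to 2 FPKM, 7.67% from 2 to 10 FPKM and 20.5% above 10 FPKM. Of the 120 intronic members, 86 lay in a gene on the same strand and 34 in one on the opposite strand only, and among snoRNA members these were 47 and 10. The sources used here do not give whether reads were counted by strand, and reads of a small RNA and of the unspliced transcript around it cannot be told apart.

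**Figure D5:**
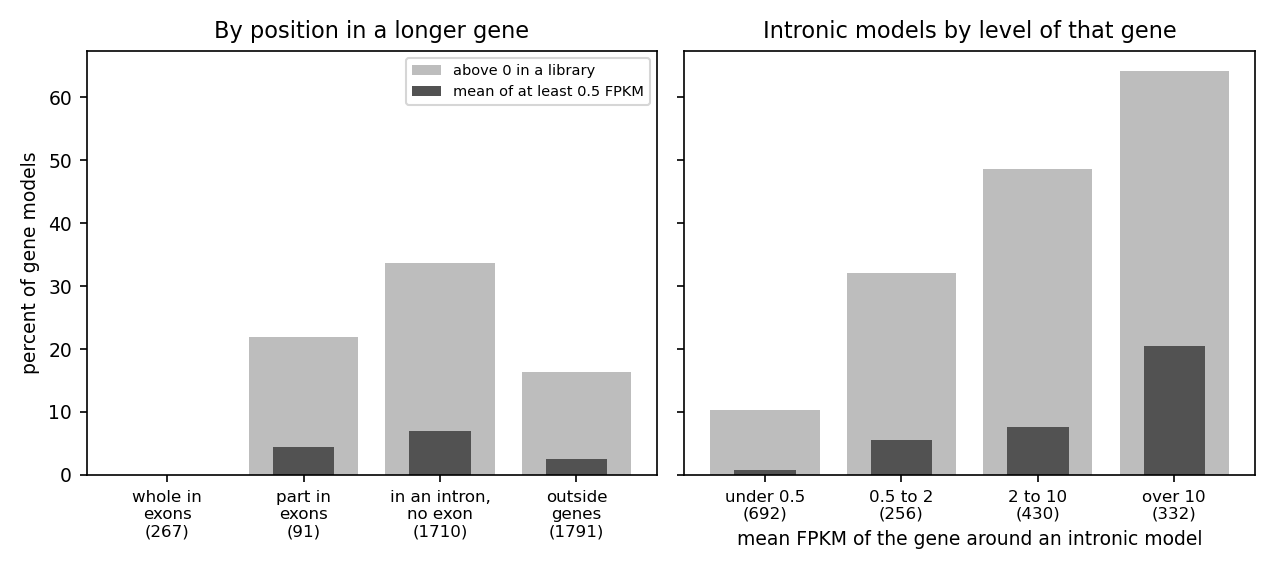
Share of gene models of the 5 classes with a read in at least 1 library (wide grey bars) and with a mean level of 0.5 FPKM or more (narrow dark bars), in percent. The left panel sorts them by position in a longer gene and the right panel sorts intronic models by the mean FPKM of the gene around them, with the number of models in brackets. Models wholly in exons have no bar because 0 of 267 had a read, and the shares are higher in each step of the gene's level.

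Few reads came from known snoRNAs even in highly expressed hosts. Rnu73b, a snoRNA in an intron of the ribosomal protein gene Rps3a1, had 1, 0 and 3 reads in the libraries labelled knockout and 1, 1 and 2 reads in the heterozygous libraries. Rps3a1 was at 129.3 ± 5.62 FPKM in the libraries labelled knockout and 123.7 ± 10.4 FPKM in the heterozygous libraries. Snora31, in an intron of the translationally controlled tumour protein gene Tpt1 (138.3 ± 15.2 FPKM in the libraries labelled knockout and 145.4 ± 8.44 FPKM in the heterozygous libraries), had 2, 0 and 4 reads, against 1, 2 and 11, most of them in 1 heterozygous library.

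Sequence shared with other genes also went with absence, but this trait is not separate from position. A word counted as shared, on either strand, also where the other gene covers the same bases. Models in exons of another gene, all at 0 where wholly inside, can thus share words by position alone. Among the members 112 of 170 (65.9%) shared no 31-base word with another gene and 13 (7.65%) shared over 50% of their words. Among the 2970 models at 0 in every library 31.03% shared over 50%, but 45.45% shared no word. Of 35 well-known small RNA genes looked up, 32 were matched by name to 37 models, of which 27 were at 0 in all 6 libraries and 3 were members, Rn7sk, Rnu73b and Terc. The models at 0 included Rnu6, Rnu11, Rnu12, the U3 genes, Rny1, Rny3 and Snord118, and 22 of the 27 shared over 50% of their words with other genes. The exceptions were Rny1 (37.8%), Snord118 (32.4%), and Rny3, Vaultrc5 and Scarna2 (0.0% each). Among the 27, each U3 gene counts as a pair of overlapping models, which share words by position. Rnu7, Rnu11 and Snora73b lie wholly in exons of other genes. Among the looked-up models with reads, Rn7sk, Rn7s2, Rnu1a1, Rnu2-10 and Rnu5g also shared over 50% of their words. Rnu73b, Terc, Scarna6, Scarna9 and Scarna13 did not. Sharing over 50% was thus found with and without reads. The models that were neither at 0 nor members, 7 in all and Rn7s2 and Scarna13 among them, never had more than 4 reads in a library. The sources used here do not give how reads with several matches were counted, and its part in the zeros was not tested.

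Proteins that work with these RNAs were read well. In 11 lists of such proteins, of snoRNA host genes and of other RNAs without a poly(A) tail, 183 of 206 genes were tested. None of the 183 was called in either direction. At an unadjusted p under 0.05 (limma) 5 of them were higher and 1 lower, beside 284 higher and 457 lower of all 19168 models tested. The lists' median difference was 0.02 in log2(FPKM + 1), beside -0.01 over all models. For the spliceosomal snRNP proteins 22 of 40 lay above 0 and the highest was Lsm4, a subunit of the ring that binds U6, at 64.0 ± 13.0 FPKM in the libraries labelled knockout and 55.6 ± 5.35 FPKM in the heterozygous libraries. In the list of snRNA transcription and maturation 18 of 37 lay above 0. Snapc2, a subunit of the complex that binds snRNA promoters, was at 8.87 ± 1.22 FPKM, against 6.60 ± 0.808 FPKM (limma adjusted p = 0.868).

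Among snoRNP proteins, 8 of 12 of the box C/D list and 6 of 9 of the box H/ACA list lay above 0. Nhp2, a core protein of H/ACA particles and of telomerase, was at 17.7 ± 0.675 FPKM in the libraries labelled knockout and 14.4 ± 1.58 FPKM in the heterozygous libraries, with groups that did not overlap (limma adjusted p = 0.868). In the 7SK list 6 of 8 lay above 0, and Larp7, which binds 7SK RNA, was at 167.7 ± 8.02 FPKM, against 178.0 ± 13.2 FPKM. In the RNA polymerase III list 19 of 24 lay above 0, and Brf2, a factor for U6 and 7SK promoters, was at 10.8 ± 0.496 FPKM, against 9.07 ± 0.688 FPKM (limma adjusted p = 0.868). None of these differences passed.

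The protein gene with the smallest p belonged to the signal recognition particle. Srp54b, a gene for its GTPase subunit, was at 1.60 ± 0.476 FPKM in the libraries labelled knockout and 6.61 ± 0.994 FPKM in the heterozygous libraries. Its difference of -1.56 in log2(FPKM + 1) had a limma adjusted p of 0.328, and limma-voom on whole reads gave 0.0195. The related genes near it on chromosome 12 differed less. Srp54a was at 0.698 ± 0.150 FPKM in the libraries labelled knockout, against 0.769 ± 0.149 FPKM, and Srp54c at 6.36 ± 2.03 FPKM, against 7.38 ± 0.574 FPKM. How reads that match several of these genes were counted is unknown here. Only 2 of the 10 genes of the signal recognition particle list lay above 0, and those other than Srp54b were not called. Above 0 lay 3 of 5 genes of the Y RNA, vault and La list, 10 of 18 of the nuclear RNA decay list, 4 of 8 other RNAs without a poly(A) tail and 5 of 13 noncoding snoRNA hosts. These noncoding hosts were low: the highest, Snhg8, was at 6.98 ± 1.88 FPKM in the libraries labelled knockout and 7.13 ± 0.976 FPKM in the heterozygous libraries (SD, n = 3 each).

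At the level that chose the members, the last inside were Gm25835 and Gm22264, at means of 0.506 and 0.502 FPKM with 8 and 6 reads over all 6 libraries. The first outside were Gm27601 and Gm25777, at 0.499 and 0.497 FPKM with 7 reads each. Between 0.5 and 0.6 FPKM lay 31 members, and between 0.4 and 0.5 FPKM lay 57 models.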

How the data were processed

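Testis RNA of 3 libraries labelled Tmc7 knockout and 3 labelled heterozygote was sequenced. The table the authors deposited holds FPKM, with length, position and class of each gene model. The builds GRCm38 and mm10 are those in the submitters' processing notes; the sources used here do not give the aligner, counter, annotation or strand handling. FPKM times length gave whole reads for 100% of values above 0 within 0.01 reads. The deposited FPKM were already on a common scale (median-of-ratios factor 1.007 in every library).

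Models whose mean reached 0.5 FPKM were tested on log2(FPKM + 1), which understates changes of low genes, with limma 3.58.1 in R 4.3.3 (trend, Benjamini-Hochberg over all 19168). Limma-voom was run on recovered reads, for genes averaging 10 or more. The fit was tested on simulated data. Positions, introns and exons came from GENCODE M21, in which all 3859 models stand at identical positions. A same-strand gene was preferred where several surround a model. Similar RNAs were found with blastn 2.17.0 (e-value 1e-05, word size 7).

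Members and lists were chosen with earlier results of these data known. Named are, per class, the 4 members of highest mean FPKM and the 4 of most reads, those of smallest p among members averaging at least 10 reads, a panel of well-known RNAs, per protein list the highest gene and those of smallest p, and the genes around named members; of these the text gives a part. Snora31, the neighbours of CT010467.1, Gm23935, Lars2, Gm23209 and Gm25014, and the models nearest the level were named after their values were seen. Alternatives covered pseudocounts, filters, scalings, the replicate block, no trend, limma-voom and each library left out. Sequences of some named RNAs are not reported here.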

Additional observations from a re-analysis of the deposited data

How the results depend on the processing

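The count of called members was 0 under all 15 alternatives, and over all genes 0 under 14 of them; limma-voom on whole reads called 1 gene, Srp54b (-2.09 in log2, adjusted p = 0.0195). With the replicate block, the counts of called genes and members stayed at 0 and the median member difference at 0.04. At an unadjusted p under 0.05 (limma) were then 35 of 170 members and 1411 of 19168 genes (without the block 23 and 741). Same-numbered libraries deviated together with correlations of 0.286, 0.0413 and 0.198, and differently numbered ones with correlations from -0.322 to 0.17. So few values do not settle whether the numbers pair the libraries. The median member difference of 0.04 became -0.17 for the 24 members with a mean of at least 2 FPKM and lay between -0.04 and 0.14 with 1 library left out. The difference in the share of reads on members, 0.0868 percentage points higher in the libraries labelled knockout, became 0.000118 without CT010467.1 and 2.5e-05 for members outside longer genes, and ranged from 0.0596 to 0.133 with 1 library left out. With 1 library left out, differences that changed sign ranged from -0.62 to 0.16 for n-R5s40, -0.22 to 0.40 for Rn7sk, -0.11 to 0.30 for Gm24900, -0.60 to 0.11 for Gm25493, -0.40 to 0.25 for Gm23027 and -0.32 to 0.019 for Hist1h2bc, a histone gene; the cause was not tested. Depth limits what can be seen: 115 members had fewer than 3 reads on average.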

Other observations

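Models of class miRNA, which were not members, took 4903, 19144 and 15071 reads in the libraries labelled knockout and 4828, 4776 and 4423 reads in the heterozygous libraries. Without Gm23935 these sums were 942, 1059 and 1135, against 668, 1052 and 1040. Mitochondrial tRNA models had 293, 339 and 279 reads in the libraries labelled knockout and 249, 321 and 396 reads in the heterozygous libraries. The ribozyme genes Rmrp and Rpph1, both highly transcribed in most tissues, were listed at 0 in all 6 libraries.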
